A study of Homo sapiens with 18 samples.

Results

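YAP1, its partner transcription factors of the TEAD family and genes that YAP and TEAD switch on were followed through the deposited expression tables of MCF10A cells in which CBFB or RUNX1 had been knocked out. The 10 genes were chosen by symbol and joined by Entrez ID. No measured value entered that rule, but the choice was made with earlier results of these data known. They were the coactivators YAP1 and WWTR1 (which encodes TAZ), the DNA-binding factors TEAD1 and TEAD4, and the targets CTGF, CYR61, ANKRD1 and AMOTL2. AJUBA and LATS2 completed the set. Both are themselves targets and act back on the pathway: LATS2 holds YAP in check, whereas AJUBA inhibits LATS kinases. All 10 were listed in each of the 3 tables, among 18526 genes in the CBFB table, 18517 in the RUNX1 KO1 table and 18117 in the RUNX1 KO2 table, and 19401 genes were listed in at least 1 table.

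MCF10A is an immortalized, non-tumorigenic line of human mammary epithelial cells. The 18 RNA samples fell into 5 groups: cells with CBFB knocked out (3 samples), the WT cells of that experiment (3), the RUNX1 knockouts KO1 (4) and KO2 (4), and the WT cells of the RUNX1 experiment (4). Every group was untreated and grown in the same medium with horse serum, insulin, EGF, hydrocortisone and cholera toxin. The knockouts were made with CRISPR and Cas9 and grown up from single cells, so each knockout group was taken here as 1 clone, and an effect of the lost gene and a difference between clones cannot be told apart. CBFB is the subunit that stabilizes RUNX proteins on DNA, and RUNX1 is one of its DNA-binding partners.

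In the Hippo pathway, the kinases MST1 and MST2 activate LATS1 and LATS2, which phosphorylate YAP and TAZ and keep them in the cytoplasm. When the kinases are off, YAP and TAZ enter the nucleus and bind TEAD factors, which have no strong activity of their own, at the DNA motif GGAATG. CTGF, CYR61 and ANKRD1 are the genes most used to read this activity. Since YAP is controlled by phosphorylation and location, the mRNA levels described here are levels of the parts and targets of the pathway and not of YAP activity.

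Each table holds 1 expression value per gene that was used here, the authors' mean of normalized read counts over the knockout and WT libraries together. The mean covered 6 libraries in the CBFB table and 8 in each RUNX1 table. It therefore has no value per sample or per group, no SD and no test, and no knockout-against-WT difference is given below. It also cannot check the labels of the knockouts: the pooled mean of CBFB was 897 in the CBFB table, and that of RUNX1 was 922 in the RUNX1 KO1 table and 839 in the RUNX1 KO2 table. The labels name a single set of 4 WT samples in the RUNX1 experiment, so both RUNX1 tables were taken to share them. The means summed to 20214423, 18050386 and 16467400 normalized reads in the CBFB, RUNX1 KO1 and RUNX1 KO2 tables. Intervals are 95% Poisson intervals on the reads behind a mean and cover counting error only, not the spread between cultures. In RNA from whole cultures, fewer cells with a transcript and less transcript per cell cannot be told apart.

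The tables held the profile of epithelial cells. All 8 epithelial markers were listed in the CBFB and RUNX1 KO1 tables and all but KRT14 in the RUNX1 KO2 table, with pooled means between 730 for TP63 and 101688 for KRT5. The endothelial markers PECAM1, VWF and CDH5 stayed at a pooled mean of 0.870 or lower in every table. Of the blood markers, PTPRC and CD3E were under 0.5 or not listed, while CD14 lay between 128 and 142. Of the fibroblast markers, COL1A1 lay between 236 and 305, COL3A1 was not listed, and PDGFRB and DCN were at 7.34 or lower.

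The TEAD motif is shown first where it stands before these genes, because it is the element through which YAP reaches them. RefSeq promoters (GRCh38.p14), taken from 250 bases before to 50 bases after a gene's start, were at hand for 7 of the 10 genes, in 10 promoters. GGAATG was searched on both strands and was found in 6 of these 10 promoters, against 14.0% of all 35116 promoters of the same length. Most of these genes were chosen as known targets of YAP and TEAD, so a share above that of all promoters was foreseeable and is no test. Below, capitals mark the motif, each sequence runs 5′ to 3′ on the strand of its gene, and CATTCC is GGAATG read on the opposite strand.
CTGF, chr6:131951524-131951553, minus strand, motif 169 bases before the start: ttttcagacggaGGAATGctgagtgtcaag
CTGF, chr6:131951459-131951488, minus strand, motifs 104 and 95 bases before the start: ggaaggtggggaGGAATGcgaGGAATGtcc
ANKRD1, chr10:90921290-90921319, minus strand, motif 220 bases before the start: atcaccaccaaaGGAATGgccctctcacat
ANKRD1, chr10:90921198-90921227, minus strand, motif 128 bases before the start: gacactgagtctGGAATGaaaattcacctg
YAP1, chr11:102110273-102110302, plus strand, motif 162 bases before the start: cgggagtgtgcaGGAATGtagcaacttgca
AMOTL2, chr3:134374499-134374528, minus strand, motif 69 bases before the start: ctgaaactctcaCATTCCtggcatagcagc
AJUBA, chr14:22976884-22976913, minus strand, motif 59 bases before the start: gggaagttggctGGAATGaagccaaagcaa

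CTGF held 3 matches, where 0.128% of all promoters held 3 or more, and ANKRD1 held 2, where 1.37% of all promoters held 2 or more. YAP1, AMOTL2 and AJUBA held 1 match each, and LATS2 had its match 9 bases after the start. The AMOTL2 and AJUBA matches lay in 1 of the 2 promoters listed for each gene. WWTR1 had no match in either of its 2 promoters, which says only that these letters are not in those windows. CYR61, TEAD1 and TEAD4 had no entry.

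The motif of the factor that was knocked out was searched in the same windows. The RUNX motif, taken as TGTGGT or TGCGGT on either strand, was found in 3 of the 10 promoters, 1 each of AMOTL2, WWTR1 and LATS2, against 19.6% of all promoters. Capitals mark the match, and ACCGCA is TGCGGT read on the opposite strand. None overlapped a TEAD match. A match to a motif is a description of the sequence and not a bound site.
AMOTL2, chr3:134374540-134374569, minus strand, motif 110 bases before the start: tgagaggttattTGTGGTtcgctttgatcc
WWTR1, chr3:149703379-149703408, minus strand, motif 123 bases before the start: tcataactgttgTGTGGTaaatatttctgt
LATS2, chr13:21061732-21061761, minus strand, motif 163 bases before the start: ccctggcgagctACCGCAggccagcaggga

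Of the coactivators, YAP1 was the more abundant. YAP1, the main effector of the pathway, had a pooled mean of 4560 normalized reads in the CBFB table, 2708 in the RUNX1 KO1 table and 2305 in the RUNX1 KO2 table, above 96.0%, 93.2% and 92.3% of the genes listed in each. WWTR1, whose product TAZ is its paralog, had means of 958, 634 and 556. Levels of different genes were compared per kilobase of the longest annotated transcript, as parts per 1000000 of a table's sum. On that scale YAP1 stood at 109, 66.5 and 64.8, above 91.0%, 86.3% and 85.6% of the genes with a transcript length. WWTR1 stood at 24.6, 16.7 and 16.8, so that YAP1 exceeded WWTR1 by 4.43, 3.98 and 3.86 times. Per kilobase of coding sequence the ratio was 3.75, 3.37 and 3.26. YAP1 has 3 named pseudogenes in RefSeq, and how reads shared with them were assigned is not given in the sources used here, so its level is less certain than those of the other 9 genes, for which no pseudogene is named.

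TEAD1 and TEAD4 encode factors with the same DNA-binding domain, and which of them led depended on the length used. TEAD1 had pooled means of 2913, 1786 and 1481 in the CBFB, RUNX1 KO1 and RUNX1 KO2 tables, and TEAD4 had 720, 722 and 773. The longest annotated transcript was 8477 bases for TEAD1 and 1690 for TEAD4. Per kilobase of transcript, TEAD1 stood at 44.4, 27.9 and 26.5 and TEAD4 at 55.1, 56.7 and 69.4, so TEAD4 was 1.24, 2.03 and 2.62 times TEAD1. Per kilobase of coding sequence, which is 1278 bases for TEAD1 and 1302 for TEAD4, the order turned and TEAD4 was 0.243, 0.397 and 0.513 of TEAD1. The ratio of TEAD4 to TEAD1 was lowest in the CBFB table and highest in the RUNX1 KO2 table, an order that the choice of length cannot alter. Most of the gap between the genes went with their transcript lengths: the log2 ratio of the CBFB to the RUNX1 KO1 table, after the scaling described with the ratios, was 0.48 for TEAD1 and -0.23 for TEAD4, and 0.20 and 0.01 once the trend with length over all genes was allowed for.

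All 4 TEAD genes were expressed. TEAD2 had means of 413, 321 and 300 and TEAD3 of 556, 453 and 425 in the same order of tables. Of the summed level of the 4 genes per kilobase of transcript, TEAD4 made up 37.9%, 46.4% and 51.0% and TEAD1 30.5%, 22.9% and 19.5%. On that scale TEAD2 and TEAD3 kept close to the same share in each table, from 13.7% to 15.0% and from 15.9% to 16.6%. Per coding length, TEAD1 instead held 64.0%, 55.1% and 50.4% of the sum.

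**Figure D1:**
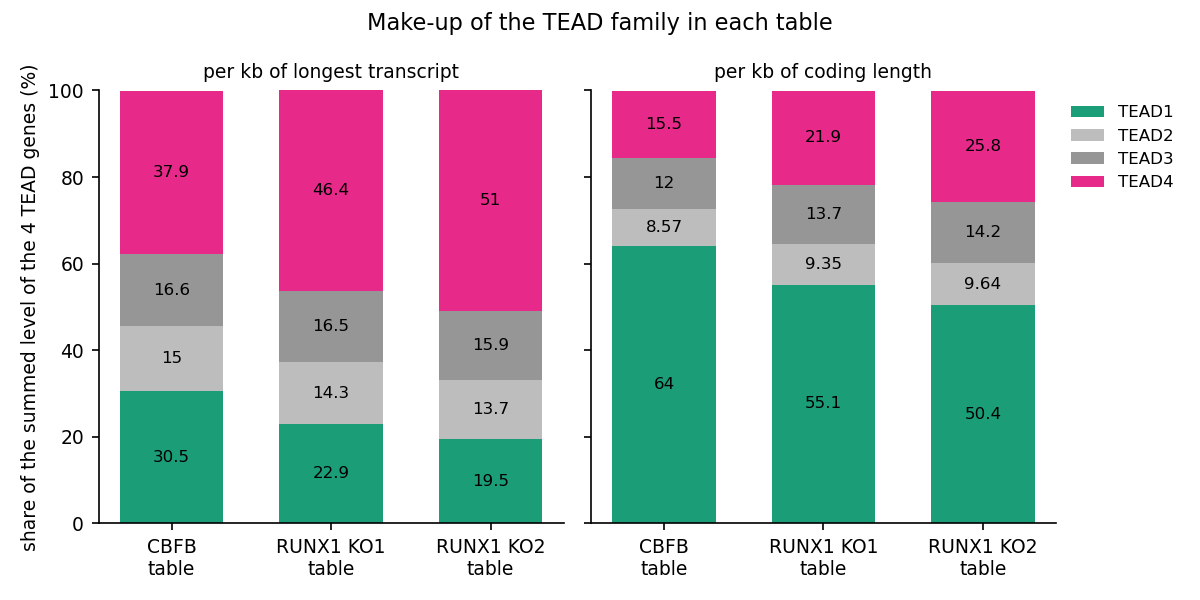
Stacked bars of the share (%) that TEAD1, TEAD2, TEAD3 and TEAD4 take of their summed level in each table, per kilobase of the longest transcript (left) and of coding length (right). TEAD4 takes 37.9% to 51.0% on the left and 15.5% to 25.8% on the right.

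CTGF and CYR61, secreted matricellular proteins of the CCN family that are now named CCN2 and CCN1, were both well expressed, and CYR61 was the higher in each table. CTGF had pooled means of 799, 581 and 517 and CYR61 of 1386, 1508 and 1373 in the CBFB, RUNX1 KO1 and RUNX1 KO2 tables. Per kilobase of transcript, CTGF stood at 44.2, 32.9 and 33.5 and CYR61 at 78.3, 87.3 and 91.0. CYR61 was thus 1.77 times CTGF in the CBFB table, 2.65 times in the RUNX1 KO1 table and 2.71 times in the RUNX1 KO2 table. This ratio is taken within a table and does not depend on how the tables are scaled, and the longest transcripts of the genes were alike in length, at 2339 and 2290 bases.

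ANKRD1, which encodes a stress-responsive ankyrin repeat protein first known from heart muscle, was the exception among the targets and was close to silent. Its pooled mean was 3.37 in the CBFB table (interval 2.04 to 5.15), from about 20 normalized reads over 6 libraries. It was 14.0 in the RUNX1 KO1 table (11.5 to 16.8) and 19.4 in the RUNX1 KO2 table (16.4 to 22.7), from about 112 and 155 reads over 8 libraries each. The interval of the CBFB table overlapped neither of the RUNX1 intervals, whereas the RUNX1 intervals overlapped each other. These intervals are on means as deposited, before any scaling between tables. Per kilobase, CTGF was 201, 35.0 and 22.6 times ANKRD1. The promoter of ANKRD1 carries 2 of the TEAD motifs printed above, so a match in the window went with both the lowest level and some of the higher ones. From a pooled mean it cannot be told which libraries held its reads.

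AMOTL2 encodes an angiomotin protein that binds YAP at cell junctions and is induced by YAP in turn. Its pooled means were 1401, 1452 and 1337, and its level per kilobase, at 40.1, 42.6 and 44.9, spanned 1.12 times from the lowest table to the highest. That of CYR61 spanned 1.16 times, YAP1 1.69 times, TEAD1 1.68 times and ANKRD1 6.75 times. Which of the steadier genes varied least depended on how the tables were scaled.

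AJUBA and LATS2 act back on the pathway in opposite directions. AJUBA, a LIM-domain protein that inhibits LATS kinases at junctions, had pooled means of 2114, 1500 and 1300 and stood at 64.2, 46.7 and 46.3 per kilobase. LATS2, the kinase, had means of 459, 324 and 286. At 10.8, 7.80 and 7.88 per kilobase it was close to the median gene of each table, at 1.11, 0.996 and 1.005 times that median, whereas the other genes except ANKRD1 lay above the median in every table.

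**Figure D2:**
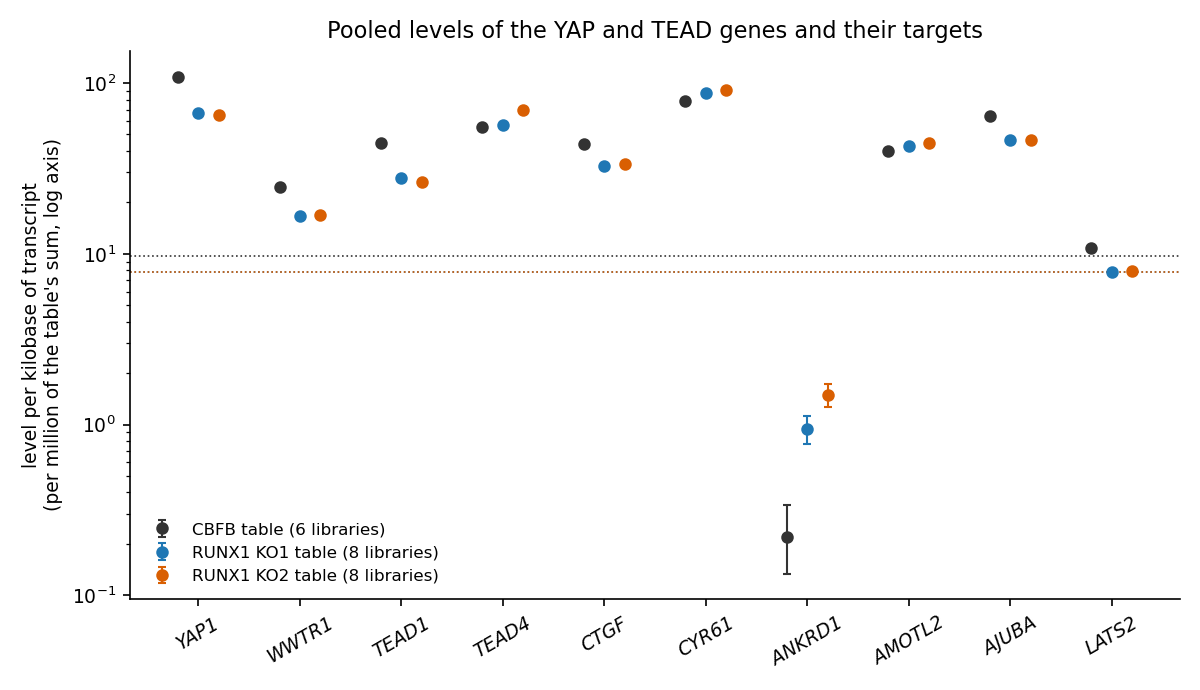
Level per kilobase of the longest transcript (parts per 1000000 of the table's sum, log axis) of the 10 genes in the CBFB, RUNX1 KO1 and RUNX1 KO2 tables. Points are pooled levels, bars are 95% counting intervals (smaller than the points except for ANKRD1), and dotted lines give the median gene, at 9.73 in the CBFB table and 7.83 and 7.85 in the RUNX1 tables. ANKRD1 lies far below the lines, LATS2 at them and the other genes above them.

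In the CBFB table the order per kilobase ran from YAP1 through CYR61, AJUBA, TEAD4, TEAD1, CTGF, AMOTL2 and WWTR1 to LATS2 and ANKRD1. TEAD1 and CTGF, at 44.4 and 44.2, could not be separated by counting error. In both RUNX1 tables CYR61 came first, followed by YAP1 and TEAD4 in the KO1 table and by TEAD4 and YAP1 in the KO2 table. AJUBA and AMOTL2 had overlapping counting intervals in the KO2 table, at 46.3 and 44.9, and no other neighbours in the 3 orders did. The spread between libraries is not known here.

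The RUNX1 tables, which share WT libraries, put the clones beside each other. The means were scaled by the median ratio over the 10174 genes whose mean reached 100 in each of them, a shift of 0.10 on the log2 scale. If the WT libraries are the same and scaled alike, a ratio of table means is smaller in size than the ratio between clones, because the WT reads are in both means. The ratio of the RUNX1 KO1 table to the KO2 table lay between -0.20 and 0.17 (log2) for all of the genes but ANKRD1. It was 0.17 ± 0.04 (95% counting interval) for TEAD1, 0.13 ± 0.03 for YAP1 and -0.20 ± 0.05 for TEAD4. CTGF, CYR61 and AMOTL2 stood at 0.06 ± 0.06, 0.03 ± 0.04 and 0.02 ± 0.04, the last turning to -0.01 under scaling to the sum. With transcript length allowed for, CTGF and CYR61 became the highest of the 10, at 0.21 and 0.18, and AMOTL2 turned to -0.03. The shared reads make these intervals approximate.

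ANKRD1 differed most between the RUNX1 tables, with a log2 ratio of -0.57 ± 0.35, so that its mean in the KO2 table was 1.48 times that in the KO1 table. Of the 1578 genes with a mean within 2-fold of its own, 6.15% had a lower ratio. TEAD4 was below all but 13.1% of 4800 such genes, and TEAD1 was above 96.3% of 3481. With length allowed for, TEAD4 stood at -0.06, above 35.7% of genes of like mean and length, and TEAD1 at 0.09, above 90.6%. ANKRD1 then stood at -0.42, above 7.81%. Over all genes whose mean reached 100, the middle 90% ran from -0.33 to 0.18, and 9 of the 10 genes lay within it. The median of the 10 genes was 0.07, and that of all genes is 0 by the scaling.

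The CBFB table and the RUNX1 tables come from separate experiments with their own WT cells and were normalized separately, so the lost gene, the clone and the experiment cannot be told apart in a ratio between them. Scaling shifted all genes by 0.23 on the log2 scale against the RUNX1 KO1 table and by 0.35 against the KO2 table. The ratios against the 2 RUNX1 tables share the CBFB means and are not independent of each other. YAP1 had the highest ratio among the 10 genes, 0.52 ± 0.03 against the KO1 table and 0.64 ± 0.03 against the KO2 table. TEAD1 followed at 0.48 ± 0.03 and 0.63 ± 0.03, then WWTR1 at 0.37 ± 0.05 and 0.44 ± 0.06. The coactivators and TEAD1 therefore made up more of the CBFB table.

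The targets did not share a direction. CTGF was higher in the CBFB table, at 0.23 ± 0.06 against KO1 and 0.28 ± 0.06 against KO2. AJUBA was also higher, at 0.27 ± 0.04 and 0.36 ± 0.04. CYR61 was lower, at -0.35 ± 0.04 and -0.33 ± 0.04. Without scaling, its ratio against KO2 was 0.01, still below 0.35, which was then the median of the genes that set the scale. With length allowed for, the ratio of CYR61 against KO2 was 0.03, a sign that depended on the length class used, as described below. AMOTL2 was lower as well, at -0.28 ± 0.04 against both. Without scaling it stood at 0.07 against KO2, again below that median of 0.35. With scaling and with length allowed for, AMOTL2 went further down, to -0.38 against KO1 and -0.41 against KO2. It was then above 9.58% and 16.9% of genes of like mean and length. ANKRD1 was the lowest at -2.29 ± 0.68 and -2.87 ± 0.67, below all but 2.20% of 1548 and 1.64% of 1528 genes of like mean.

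**Figure D3:**
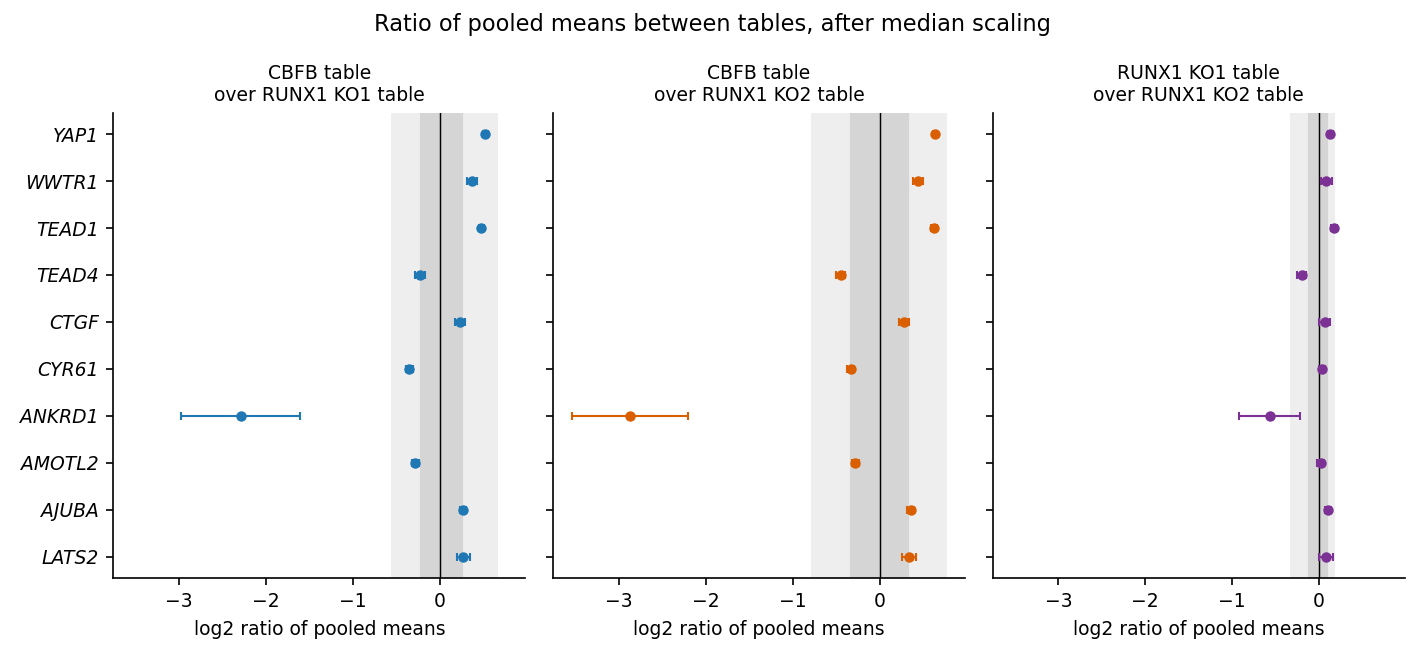
Log2 ratio of pooled means between tables after median scaling for the 10 genes, with 95% counting intervals as bars. The dark band holds the middle 50% and the light band the middle 90% of all genes whose mean reached 100. ANKRD1 lies left of the bands in every panel, and the other 9 genes lie within the light band, with YAP1 and TEAD1 near its right edge.

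Ratios between tables followed transcript length over all genes, and this bears on most of the 10. Across 10446 genes, Spearman's rho between the length of the longest transcript and the ratio of the CBFB table to the RUNX1 KO1 table was 0.55, and it was 0.56 over 9983 genes against the KO2 table and 0.52 over 10094 genes between the RUNX1 tables. Genes are not independent replicates, and the points share libraries, so no test is given. Against the KO1 table, the median ratio ran from -0.24 in the shortest of 4 equal classes of transcripts to 0.28 in the longest. The short transcripts of TEAD4, CTGF, CYR61 and ANKRD1 fell in the shortest class and the long one of TEAD1 in the longest, with LATS2 at the edge of the longest.

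With the median of its own length class subtracted, an adjustment chosen after the trend had been seen, YAP1 kept 0.43 against KO1 and 0.51 against KO2, above 95.5% and 94.5% of genes of like mean and length. CTGF stood out more than before, at 0.47 and 0.65, above 95.1% and 95.4% of such genes. The transcripts of CTGF and CYR61, at 2339 and 2290 bases, lay near the upper edge of the shortest class, at 2422 and 2491 bases. The medians of that class were -0.24 and -0.37, and those of the narrower bin of length that holds both genes were -0.18 and -0.27. With the bin in place of the class, both genes would stand lower, and CYR61 would be negative against KO2 too. WWTR1 stood at 0.27 and 0.31, above 81.5% and 80.1%, and AJUBA at 0.17 and 0.23, above 75.2% and 77.1%. TEAD1 came down to 0.20 and 0.26, above 73.7% and 78.9%. TEAD4 went from -0.23 to 0.01 against KO1 and from -0.45 to -0.08 against KO2. LATS2 went from 0.27 to -0.01 against KO1 and from 0.33 to 0.20 against KO2, and its transcript of 5511 bases fell just inside the longest class in the KO1 ratio and just outside it in the KO2 ratio. ANKRD1 stayed at -2.05 and -2.50. The median of the 10 genes went from 0.25 to 0.090 against KO1 and from 0.31 to 0.22 against KO2. Beyond this adjustment, the part of transcript length in these ratios was not tested.

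**Figure D4:**
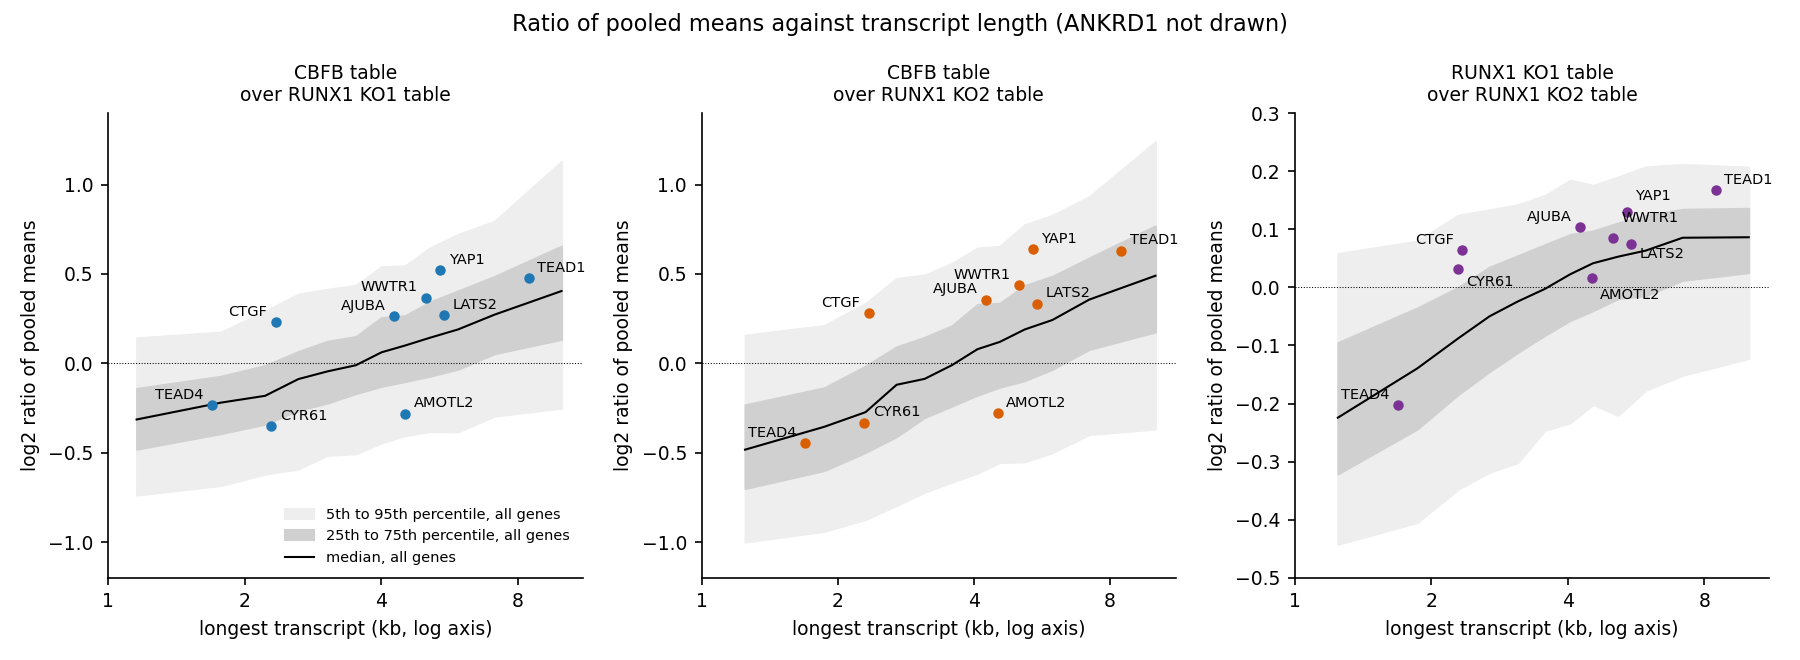
Log2 ratio of pooled means between tables (vertical, a narrower range in the panel of the RUNX1 tables) against the longest transcript (kb, log axis), with ANKRD1 left out for scale. The black line is the median, the dark band the middle 50% and the light band the middle 90% of all genes whose mean reached 100 in 12 bins of length, and points are the other 9 genes. The line climbs with length in every panel. In both CBFB panels CTGF, YAP1 and WWTR1 lie above the dark band, AJUBA at its upper edge and AMOTL2 below it.

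Other genes of the pathway were read from lists set with earlier results of these data known. Among 6 other TEAD and VGLL genes, 5 were listed in every table and VGLL2, a cofactor of skeletal muscle, in none. VGLL4, which competes with YAP for TEAD, had means of 715, 682 and 660 in the CBFB, RUNX1 KO1 and RUNX1 KO2 tables. VGLL1, another TEAD cofactor, had means of 48.4, 207 and 283, with log2 ratios of -2.32 for CBFB over KO1, -2.89 for CBFB over KO2 and -0.55 for KO1 over KO2. These are close to the values of ANKRD1 given above. The keratin KRT17, an epithelial marker, lay in the same range at -2.42, -3.05 and -0.62.

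Of the 19 genes of the Hippo kinase cassette and its upstream regulators, 18 had a mean of at least 100 in each table. In the ratio of the CBFB to the RUNX1 KO1 table, 14 of these 18 lay above 0 with a median of 0.39, which became 0.15 with length allowed for. By the scaling, as many of all genes whose mean reached 100 lie above 0 as below it. The longest class of transcripts, however, had a median of 0.28, so the count of 14 does not allow for length. The corresponding median against KO2 was 0.46, or 0.19 with length allowed for. MAP4K4, a kinase upstream of LATS, was the highest per kilobase, with pooled means of 6912, 5366 and 4571. AMOTL1, an angiomotin like AMOTL2, had means of 3834, 2483 and 2160, and NF2, the scaffold merlin, 1862, 1788 and 1736.

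Of 20 further genes known as YAP targets, all were listed and 17 had a mean of at least 100 in each table. Their median ratio was 0.05 for CBFB over KO1, with 9 of 17 above 0, and 0.28 for CBFB over KO2, with 10 of 17 above 0. By the scaling, as many of all genes whose mean reached 100 lie above 0 as below it. The counts of 9 and 10 were close to that split, so they show nothing particular to YAP targets. With length allowed for, the medians were -0.01 for CBFB over KO1 and 0.24 for CBFB over KO2. Those of the 10 genes were 0.090 and 0.22. The highest per kilobase were AREG, an EGF receptor ligand, and F3, the tissue factor that starts coagulation. AREG had pooled means of 5749, 7369 and 6765 and F3 of 8833, 7648 and 6308. Between the RUNX1 tables the median over the 17 genes was 0.08, with 12 of 17 above 0, beside a median of 0.07 for the 10 genes.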

How the data were processed

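RNA of MCF10A cells was sequenced in 18 samples. Per the labels, the authors used Trimmomatic, STAR, DESeq2 and the build hg19. The read counter and annotation are not given in the sources used here. The labels name a TruSeq mRNA kit and the paper's methods a depletion of ribosomal RNA. The deposited tables, 3 in number, set a knockout against its WT. From each, the mean of normalized counts over all its libraries, a signal pooled by the authors, was used. The other columns hold the authors' own comparison (log2 fold change, its standard error, test statistic, p-values) and were not used. No column (0 of them) gives a value per sample.

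Genes were joined by Entrez ID. Transcript and coding lengths were the longest of a gene in GENCODE release 29, and 97.2% to 97.4% of the listed genes had a transcript length. Table means were scaled by the median ratio over genes whose mean reached 100 in each table of a pair. Sequences and the symbols of genes came from RefSeq (GRCh38.p14), and motif positions were not compared with the hg19 alignments. The genes named were the 10 members, CBFB, RUNX1, all TEAD genes, the 3 genes highest per kilobase of each further list, genes of a list that no table holds, and the cell type markers; 2 genes that this rule names are not reported here. KRT17 was singled out after its values were seen. Members and lists were chosen with earlier results of these data known. Alternatives were no scaling, scaling to the sum of means, a minimum mean of 10 for percentiles, coding length or no length for levels and, chosen after seeing the data, an adjustment for transcript length. Python 3.11.15, pandas 2.3.3, numpy 2.4.6 and scipy 1.17.1 were used.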

Additional observations from a re-analysis of the deposited data

How the results depend on the processing

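The median log2 ratio of the 10 genes was above 0 under every scaling tried, but its size moved. Leaving out the scaling, or scaling to the sum, shifted every gene of a pair by the same amount. The place of the 10 genes among all genes was therefore not tested by these 2 changes. Without scaling, the genes that set the scale had medians of 0.10 (KO1 over KO2), 0.23 (CBFB over KO1) and 0.35 (CBFB over KO2). For the RUNX1 KO1 over the KO2 table the median of the 10 genes was 0.07, and 0.17 without scaling. For the CBFB over the KO1 table it was 0.25, and 0.48 without scaling, 0.31 with scaling to the sum of means and 0.090 with transcript length allowed for. For the CBFB over the KO2 table it was 0.31, and 0.65, 0.36 and 0.22 under the same changes. Scaling to the sum turned the sign of AMOTL2 alone, between the RUNX1 tables. The length adjustment was chosen after seeing the data. Leaving out genes under a mean of 10 lowered every percentile, that of YAP1 in the CBFB table from 96.0 to 94.5. With coding length, 4, 5 and 6 of the 10 genes changed place in the order of levels in the CBFB, KO1 and KO2 tables. No paired analysis was possible because the tables hold no value per sample, and for the same reason no replicate could be left out. Depth limits ANKRD1 most, with about 20 reads in the CBFB table.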
